A study of Homo sapiens with 14 samples.

Results

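Eph receptors and the ephrin-B ligands formed the gene set described here: EPHA1, EPHA2, EPHA4, EPHB1, EPHB2, EPHB3, EPHB4, EPHB6, EFNB1 and EFNB2, which are 8 receptor genes and 2 ligand genes among 62699 genes in the count table. Each was matched by its exact symbol, and the set was chosen by its measured values, namely the control levels and the ratio of each ADAR siRNA library to the control of its line, so those values are a description with no test on the members. RNA sequencing of poly(A) RNA was carried out on 14 libraries from 4 human cancer cell lines. Every line gave 2 libraries of cells with an siRNA against ADAR, numbered 1 and 2, and 1 library of cells with a control siRNA. ADAR encodes the enzyme that converts adenosine to inosine in double-stranded RNA. MDA-MB-231 also gave 1 library with overexpressed NOP14, a nucleolar factor of small ribosomal subunit assembly, and 1 control library named PCDH. MDA-MB-231 and BT-549 are labelled triple-negative breast cancer lines, NCI-H1395 a lung adenocarcinoma line and AGS a gastric adenocarcinoma line. The sources used here do not say whether libraries 1 and 2 are repeats of 1 siRNA or stem from different siRNAs, nor how long cells were treated.

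Eph receptors are the largest family of receptor tyrosine kinases. They bind ephrins on the surface of a neighbouring cell, A-type receptors mostly binding the lipid-anchored ephrin-A ligands and B-type receptors the transmembrane ephrin-B ligands, with EPHA4 also binding ephrin-B. Contact signals both ways, forward through the receptor kinase and in reverse through the ephrin-B tail, and acts on cell repulsion, adhesion and the sorting of cells into separate compartments. In the intestine EPHB2 and EPHB3 are known targets of beta-catenin and TCF transcription factors.

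The promoters of 3 receptor genes are shown because EPHB2 and EPHB3 had the widest differences between libraries and EPHA1 was counted in AGS and was at or near 0 in the other lines. Each sequence is the strand of the gene from 250 bases before its start to 50 bases after, from RefSeq on GRCh38.p14, with CG dinucleotides, the sites of DNA methylation, in capitals.
EPHB2, chr1:22710589-22710888, plus strand: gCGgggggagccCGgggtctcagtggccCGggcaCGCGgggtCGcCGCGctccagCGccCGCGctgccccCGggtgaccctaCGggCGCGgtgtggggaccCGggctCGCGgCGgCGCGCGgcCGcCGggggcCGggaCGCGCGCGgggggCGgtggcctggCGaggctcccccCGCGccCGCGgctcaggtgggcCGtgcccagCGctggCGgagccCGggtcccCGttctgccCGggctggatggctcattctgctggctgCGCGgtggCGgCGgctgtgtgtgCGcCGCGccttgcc
EPHB3, chr3:184561535-184561834, plus strand: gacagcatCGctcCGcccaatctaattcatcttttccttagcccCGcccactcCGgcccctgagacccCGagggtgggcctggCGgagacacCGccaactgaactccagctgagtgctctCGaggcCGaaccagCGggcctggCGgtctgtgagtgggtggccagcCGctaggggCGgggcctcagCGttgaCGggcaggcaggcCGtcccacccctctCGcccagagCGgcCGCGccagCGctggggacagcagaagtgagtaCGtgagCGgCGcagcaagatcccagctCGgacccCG
EPHA1, chr7:143408807-143409106, minus strand: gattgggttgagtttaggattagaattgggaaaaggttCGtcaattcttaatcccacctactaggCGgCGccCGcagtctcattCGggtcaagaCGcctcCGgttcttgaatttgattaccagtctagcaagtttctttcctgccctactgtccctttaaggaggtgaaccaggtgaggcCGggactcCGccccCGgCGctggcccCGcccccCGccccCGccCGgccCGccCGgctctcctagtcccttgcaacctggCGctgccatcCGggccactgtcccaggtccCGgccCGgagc

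EPHB2's window held 48 CG dinucleotides, more than 98.0% of 34796 promoters of that length, whose median was 14. EPHB3's window held 26 and EPHA1's held 21. A second RefSeq start of EPHB2 lies 1 base earlier, and its window held 49. All 10 genes matched the promoter table, with 12 windows. The CG counts of the other members were 49 for EFNB2, 36 for EPHB4, 20 for EPHA2, 19 for EPHB1, 18 for EFNB1 and 3 for EPHB6, and the pair of EPHA4 starts gave 33 and 12. The EPHB6 start used lies 7695 bases inside the gene as counted, and the EPHA4 start that gave 33 lies 1898 bases inside. The TCF letters CTTTG followed by any pair of A or T, 4 words of which at most 1 fits a given position, were searched on both strands. None of the 12 windows held such a word, against 13.8% of all promoters, which says only that these letters are not in these windows.

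Total counts per library were between 13338338 and 27828376. ADAR, the targeted gene, was at 10.7% to 33.3% of the control level in the 8 ADAR siRNA libraries. NOP14 was 6.56-fold higher in the NOP14 library than in the PCDH library. The 3 siRNA libraries of MDA-MB-231 stood apart from the NOP14 and PCDH libraries of the same line: Pearson's r of log2 levels was 0.908 to 0.921 between these sets and 0.997 between the NOP14 and PCDH libraries. The summed level of 92 histone genes was 5497 and 7794 CPM (counts divided by the TMM-scaled library size) in ADAR siRNA libraries 1 and 2 of MDA-MB-231, 9888 CPM in its control siRNA library, 598 CPM with NOP14 overexpression, 589 CPM with PCDH and 517 to 2944 CPM elsewhere. The hormone receptor genes ESR1 and PGR summed to at most 1.04 CPM in the breast lines. In NCI-H1395 the lung markers NKX2-1, NAPSA and SFTPB summed to 0.162 to 1.35 CPM and were thus nearly absent. Of its 5 epithelial markers, EPCAM, CDH1 and KRT19 stayed at or under 0.704 CPM, while KRT8 was at 168 to 234 CPM and KRT18 at 382 to 589 CPM, and VIM was at 1470 to 2466 CPM. In BT-549 too, EPCAM, CDH1 and KRT19 stayed at or under 0.224 CPM. There KRT8 was at 1.60 to 4.21 CPM, KRT18 at 71.2 to 94.6 CPM and VIM at 1282 to 1986 CPM. MDA-MB-231 had CDH1 at or under 0.489 CPM and VIM at 1032 to 1328 CPM, but KRT8 at 652 to 1306 CPM and EPCAM at 5.67 to 12.9 CPM. AGS had EPCAM at 302 to 385 CPM and CDX2 at 47.0 to 83.5 CPM, while the stomach markers CLDN18, MUC5AC and TFF2 were at or near 0. Immune markers summed to at most 1.25 CPM in any library. Among endothelial markers CDH5 and VWF stayed at or under 1.94 CPM, while PECAM1 reached 22.1 CPM in MDA-MB-231.

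EPHA2 was the highest of the 10 genes in every line once levels were divided by exon length. Per kilobase of exon its level in the control siRNA libraries was 109 CPM in MDA-MB-231, 221 in BT-549, 416 in AGS and 93.2 in NCI-H1395, which is 71.1% to 87.3% of the summed level per kilobase of the 10 genes. EPHB4, the ephrin-B2 receptor known from vein formation, was second in all 4 lines, at 16.8 CPM per kilobase in MDA-MB-231, 17.4 in BT-549, 25.8 in AGS and 21.0 in NCI-H1395. The third place differed between lines. It was held by EPHB2 in MDA-MB-231 at 11.4 CPM per kilobase, by EFNB1 in BT-549 at 5.70 and in NCI-H1395 at 5.62, and by EFNB2 in AGS at 25.5. Some neighbours in this order had overlapping 95% counting intervals: EPHB4 and EFNB2 in AGS (24.8 to 26.7 and 24.5 to 26.6 CPM per kilobase), EPHB2 and EFNB2 in NCI-H1395, EFNB1 and EFNB2 in BT-549, and EPHA4 and EFNB1 in MDA-MB-231. Each level rests on 1 control library, so the spread between control cultures is not known.

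**Figure D1:**
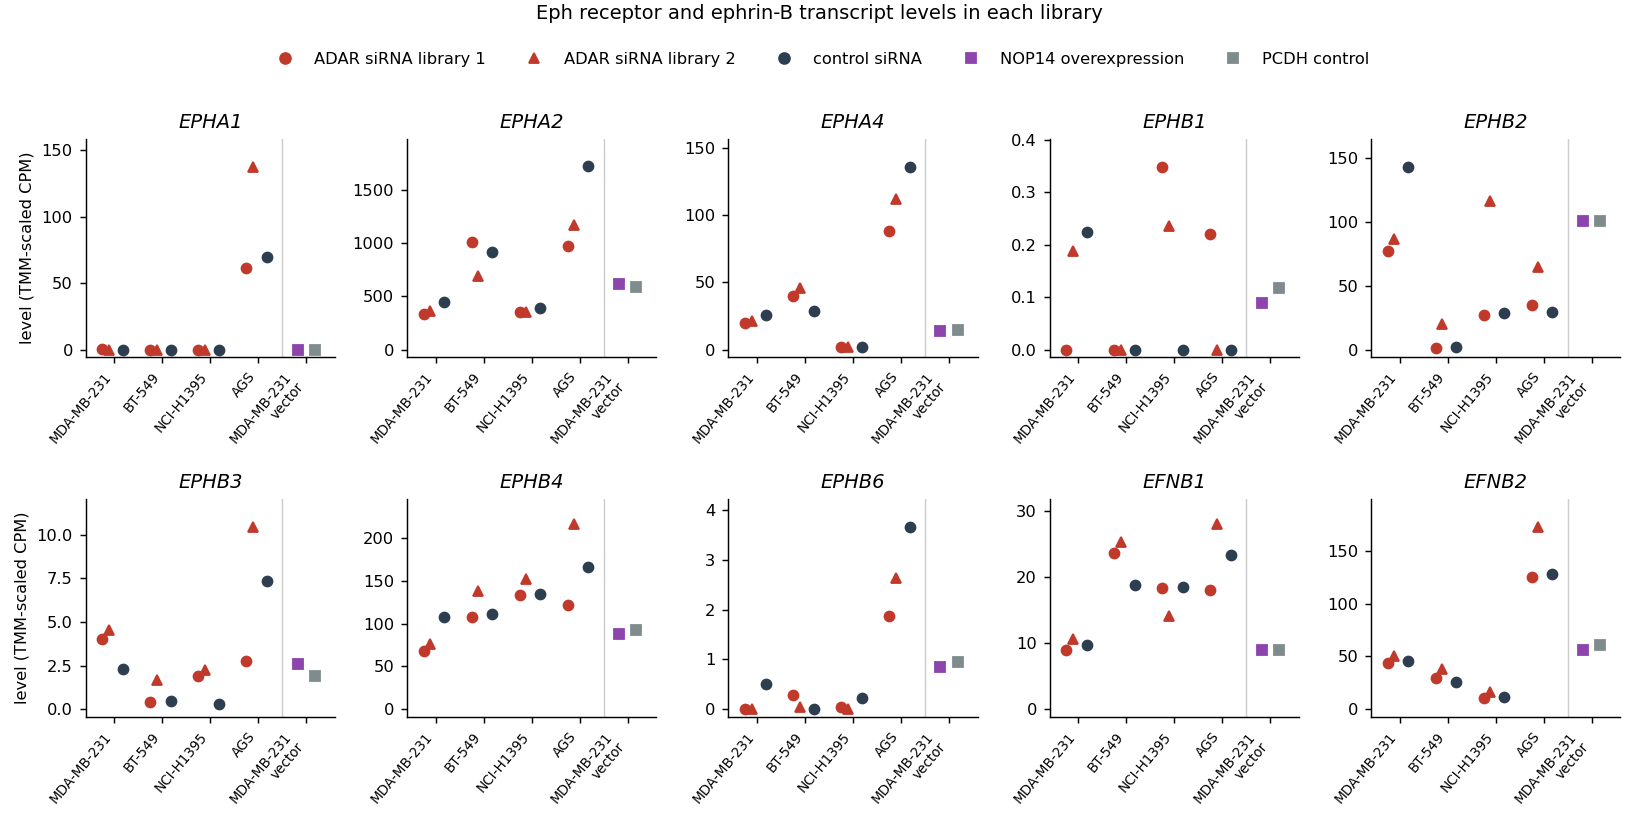
Level of each gene in the 14 libraries, as TMM-scaled CPM on linear axes that differ between panels; red points are ADAR siRNA libraries (circle, library 1; triangle, library 2), dark circles control siRNA, purple and grey squares NOP14 overexpression and PCDH. EPHA1 stands above the floor in AGS, at 61.1 to 137 CPM, and the EPHB2 triangles of BT-549, NCI-H1395 and AGS lie above both circles.

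EPHA1, the first Eph receptor described, had 61.1 and 137 CPM in ADAR siRNA libraries 1 and 2 of AGS, against 69.8 CPM in control AGS. The control lay between both ADAR siRNA libraries, which were at 87.4% and 196% of it. Across the other 11 libraries EPHA1 had at most 2 counts, and 9 libraries had 0. A count of 0 allows up to 3 counts. Exons of EPHA1 share 82 bases, 1.75% of their length, with ZYX on the opposite strand, a gene with 32881 counts over the 14 libraries against 4879 for EPHA1.

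EPHA2, a receptor for ephrin-A1 that is often abundant in carcinoma cells, was lower than in the control in 7 of the 8 ADAR siRNA libraries. In AGS it had 969 and 1166 CPM in ADAR siRNA libraries 1 and 2, against 1724 CPM in the control, which is 56.2% and 67.6% of the control level. In MDA-MB-231 it had 335 and 362 CPM with ADAR siRNA, against 451 CPM in the control (74.3% and 80.2%). NCI-H1395 had 354 and 350 CPM with ADAR siRNA, against 386 CPM in the control (91.6% and 90.7%). Both ADAR siRNA libraries thus lay below the control in these 3 lines, although with library totals in place of TMM the NCI-H1395 levels were 389 and 401 CPM with ADAR siRNA, against 403 CPM in the control. In BT-549 they lay on either side of it, at 1007 CPM in library 1 and 691 CPM in library 2, against 917 CPM in the control. In a bulk library, fewer cells that express a gene and less of its RNA per cell cannot be told apart.

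EPHA4, a receptor that binds both ephrin classes, lay on opposite sides of the control in different lines. BT-549 had 40.2 and 45.5 CPM with ADAR siRNA, against 29.0 CPM in the control (139% and 157%). AGS had 88.2 and 112 CPM with ADAR siRNA, against 135 CPM in the control (65.1% and 82.9%), and MDA-MB-231 had 19.7 and 21.4 CPM, against 25.4 CPM (77.5% and 84.5%). So both ADAR siRNA libraries were above the control in BT-549 and both were below it in AGS and MDA-MB-231. NCI-H1395 had 50 and 29 counts with ADAR siRNA and 37 counts in the control, where the counting intervals of both ratios include 1.

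EPHB2 showed the widest differences of the 10 genes, and they ran between libraries 1 and 2. In BT-549 it had 1.03 and 19.9 CPM in ADAR siRNA libraries 1 and 2, against 1.998 CPM in the control, from 18, 444 and 40 counts. NCI-H1395 had 27.3 and 116 CPM with ADAR siRNA, against 28.8 CPM in the control. AGS had 34.7 and 65.0 CPM with ADAR siRNA, against 29.7 CPM in the control. Library 2 was above the control in these 3 lines, by 9.95-fold in BT-549 (95% counting interval 7.19 to 14.1), 4.04-fold in NCI-H1395 (3.67 to 4.45) and 2.19-fold in AGS (1.97 to 2.43). Library 1 was at 51.6%, 94.9% and 117% of the control in the same lines, taken in that order.

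In MDA-MB-231 both ADAR siRNA libraries had less EPHB2 than the control. They held 77.0 and 86.9 CPM, against 143 CPM with control siRNA (54.0% and 60.9%). The NOP14 and PCDH libraries of the line had 101 and 100 CPM, between the ADAR siRNA and the control siRNA levels. The mean log2 ratio to the control siRNA was -0.80 ± 0.12 in MDA-MB-231 and 0.67 ± 0.64 in AGS (SD of 2 libraries that share 1 control).

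EPHB3, a receptor closely related to EPHB2, was low in every line, at 0.27 to 10.5 CPM. MDA-MB-231 had 4.01 and 4.56 CPM with ADAR siRNA, against 2.30 CPM in the control. NCI-H1395 had 1.91 and 2.23 CPM with ADAR siRNA, against 0.270 CPM in the control. These ratios, 1.75 and 1.99 in MDA-MB-231 and 7.08 and 8.27 in NCI-H1395, put both ADAR siRNA libraries above the control, although the NCI-H1395 control held only 5 counts and the intervals are wide (2.82 to 22.9 for library 1 and 3.25 to 26.9 for library 2). AGS had 2.75 and 10.5 CPM, one below and one above the 7.37 CPM of its control, and BT-549 had 7 and 37 counts, against 9 in the control.

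EPHB4 was below the control in both ADAR siRNA libraries of MDA-MB-231, with 67.9 and 76.3 CPM, against 108 CPM in the control (62.9% and 70.7%). In the other 3 lines library 1 lay under the control and library 2 over it with TMM scaling. Their library 1 levels were 96.1% of the control in BT-549, 73.4% in AGS and 98.8% in NCI-H1395, and their library 2 levels were 124%, 130% and 113%, in the same order. The library 1 intervals of BT-549 (0.9035 to 1.02) and NCI-H1395 (0.937 to 1.04) include 1. With library totals, library 1 of NCI-H1395 had 147 CPM of EPHB4, against 141 CPM in the control. EPHB1 had at most 8 counts in any library and 0 in 7 of 14. EPHB6, which lacks kinase activity, passed 20 counts in the 3 AGS libraries, where it had 1.87 and 2.64 CPM with ADAR siRNA, against 3.66 CPM in the control, and in the PCDH library with 24 counts. In MDA-MB-231 both ADAR siRNA libraries had 0 counts of EPHB6, against 9 in the control siRNA library.

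**Figure D2:**
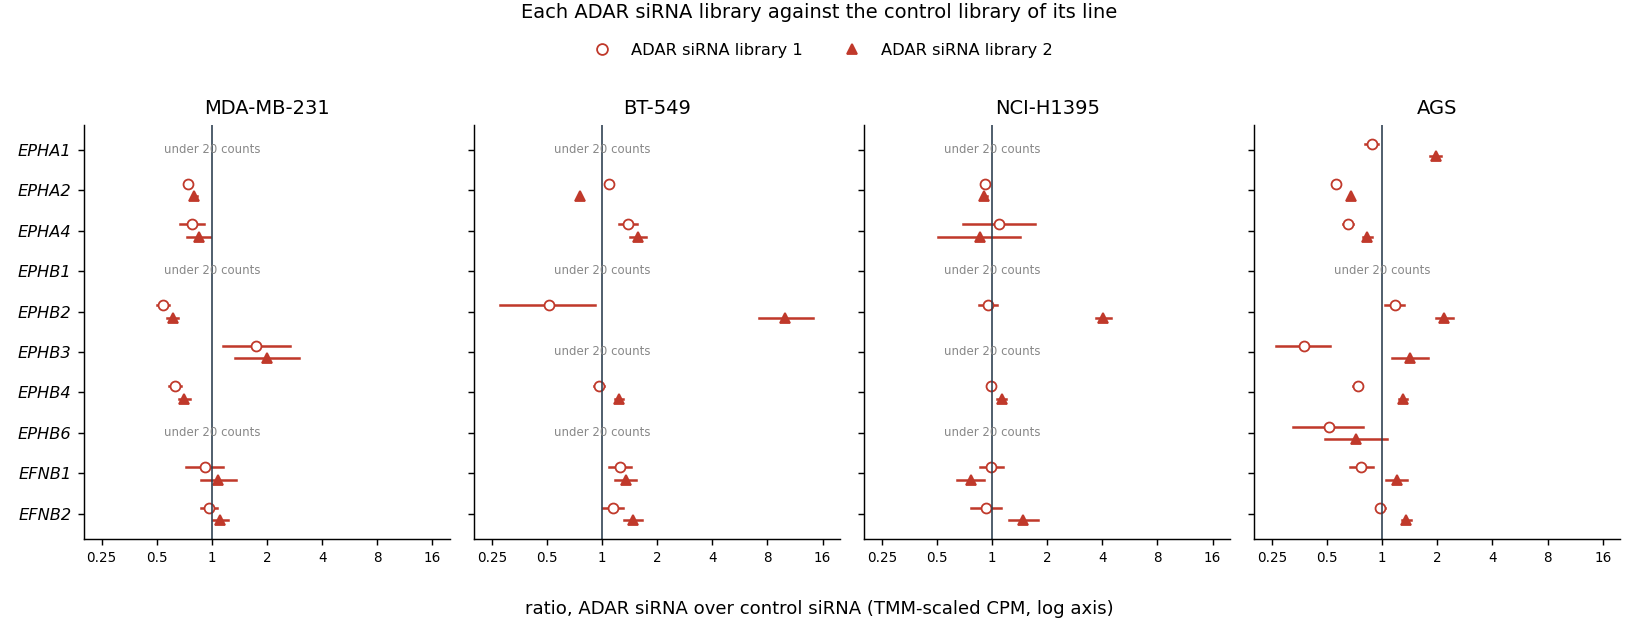
Ratio of each ADAR siRNA library to the control siRNA library of its line, on a log axis, with exact 95% counting intervals; open circles are library 1 and filled triangles library 2. Genes with under 20 counts in one of the 3 libraries are left out, except EPHB2 in BT-549, where library 1 held 18 counts. In MDA-MB-231 both libraries lie below 1 for EPHA2, EPHA4, EPHB2 and EPHB4, and the EPHB2 triangles lie at 9.95 in BT-549, 2.19 in AGS and 4.04 in NCI-H1395.

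EFNB2, the ephrin-B2 ligand of EPHB4, was highest in AGS. There it had 125 and 173 CPM with ADAR siRNA, against 128 CPM in the control. BT-549 had 29.4 and 37.7 CPM with ADAR siRNA, against 25.5 CPM in the control, NCI-H1395 had 10.3 and 16.4 CPM, against 11.1 CPM, and MDA-MB-231 had 43.9 and 50.7 CPM, against 45.6 CPM. Library 2 lay above the control in all 4 lines, at 111% to 148% of it, while library 1 was at 92.6% to 115%. Of the exon bases of EFNB2, 36.4% overlap a gene on the opposite strand, ENSG00000284966, with 648 counts over all libraries against 15393 for EFNB2. No source used here gives the strand setting of the counting, and reads in these 1822 bases may be missing or shared.

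EFNB1, the ephrin-B1 ligand, had a narrower range, 8.90 to 28.0 CPM over the 14 libraries. In BT-549 both ADAR siRNA libraries, with 23.6 and 25.3 CPM, were above the control at 18.8 CPM. In NCI-H1395 they had 18.4 and 14.2 CPM, against 18.6 CPM, so that library 1 was at 99.2% of the control and library 2 at 76.3%. With library totals in place of TMM, library 1 of NCI-H1395 was above its control (20.2 and 19.4 CPM). AGS had 18.0 and 28.0 CPM on either side of 23.4 CPM, and MDA-MB-231 had 8.92 and 10.6 CPM on either side of 9.80 CPM.

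Sides of the control were counted with TMM scaling, over genes with at least 20 counts in all 3 siRNA libraries of a line. MDA-MB-231 had 1 member with both ADAR siRNA libraries above the control, 4 with both below and 2 split, of 7. Among all 13340 genes so counted there, both were above in 31.7% and below in 45.8%. BT-549 had 3 above, 0 below and 2 split of 5 (30.0% above and 32.2% below among 12541 genes). NCI-H1395 had 0 above, 2 below and 4 split of 6 (30.0% and 37.9% of 13475 genes). AGS had 1 above, 3 below and 5 split of 9 (27.6% and 33.4% of 12552 genes). In MDA-MB-231 the median log2 ratio of all genes at 5 CPM or more in library 1 was -0.17 with TMM scaling and 0.04 with library totals, and EPHA2, EPHA4, EPHB2 and EPHB4 averaged below the control under both. These counts are a description, since the same ratios were in view when the genes were chosen.

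Across all genes, fits were made in each line, over the 4 lines and between libraries 2 and 1, and a gene is called at a Benjamini-Hochberg adjusted p under 0.05 over all genes tested. The members were chosen on these contrasts, so their calls are not read as results; 9 of them passed the expression filter and EPHB1 did not. By edgeR's quasi-likelihood test, 0.0751% of 23959 genes were called in MDA-MB-231, 0.00417% in each of BT-549, NCI-H1395 and AGS, 0.0182% of 21944 genes over the 4 lines and 0.0293% of 20470 genes between libraries 2 and 1. DESeq2 called 0.188% in MDA-MB-231, 0.0125% in BT-549, 0.196% in NCI-H1395, 0.0584% in AGS, 3.08% over the 4 lines and 0.313% between libraries 2 and 1. At an unadjusted edgeR p under 0.05, 4.85% of all genes passed in MDA-MB-231, 3.1% in BT-549, 5.3% in NCI-H1395, 4.98% in AGS, 11.5% over the 4 lines and 8.72% between libraries 2 and 1. ADAR itself was called by edgeR in each line, but not over the 4 lines with the pairs summed (-2.50 ± 0.29, adjusted p = 0.0996), where DESeq2 called it (adjusted p = 2.33e-16), as did edgeR on the 12 unsummed libraries (adjusted p = 3.11e-05). A gene that edgeR did not call over the 4 lines is thus not shown to be unchanged. With 2 libraries against 1 in a line, 5 of 100 simulated 2-fold changes and 70 of 100 simulated 4-fold changes were recovered.

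Library 2 was set against library 1 directly, with no control involved. EPHB2 was higher in library 2 by 19.3-fold in BT-549 (12.1 to 32.9), 4.26-fold in NCI-H1395 (3.89 to 4.66) and 1.87-fold in AGS (1.70 to 2.07), and by 1.13-fold in MDA-MB-231 (1.04 to 1.22). It was the only member over 1.5-fold in BT-549, NCI-H1395 and AGS alike, where 2.41% of 17991 genes were. Those genes had at least 20 counts in at least 1 ADAR siRNA library of these lines. Genes hardly counted in some of the lines are thus included, which lowers the share. EPHB3 was 4.14-fold higher in BT-549 (1.82 to 10.99) and 3.81-fold in AGS (2.78 to 5.31). Its ratios in NCI-H1395, 1.17 (0.737 to 1.85), and in MDA-MB-231, 1.14 (0.794 to 1.63), had intervals that include 1. EPHB4 and EFNB2 were higher in library 2 in all 4 lines with intervals above 1, EPHB4 by 1.12- to 1.78-fold and EFNB2 by 1.16- to 1.60-fold. EPHB4 passed 1.5-fold in AGS alone and EFNB2 in NCI-H1395 alone. The share of all genes higher in library 2 in every line was not counted, so a shared direction is not read as a trait of these genes. EPHA1 in AGS was 2.24-fold higher in library 2.

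EPHA2, EPHA4 and EFNB1 were not higher in library 2 in every line. The library 2 to library 1 ratio of EPHA2 was 1.08 in MDA-MB-231, 0.687 in BT-549, 1.20 in AGS and 0.990 in NCI-H1395. In NCI-H1395 the ratio was 0.785 for EPHA4 (0.479 to 1.26) and 0.769 for EFNB1 (0.654 to 0.903). In the other lines it was 1.09 to 1.27 for EPHA4 and 1.07 to 1.56 for EFNB1. Over all genes counted, library 2 exceeded library 1 by more than 1.5-fold in 4.69% in MDA-MB-231, 14.2% in BT-549, 21.3% in AGS and 11.8% in NCI-H1395. The ADAR level itself was at 33.3% of the control in library 2 and 31.7% in library 1 of MDA-MB-231, at 11.5% in library 2 and 13.0% in library 1 of BT-549, at 23.6% in library 2 and 17.1% in library 1 of AGS, and at 11.5% in library 2 and 10.7% in library 1 of NCI-H1395.

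**Figure D3:**
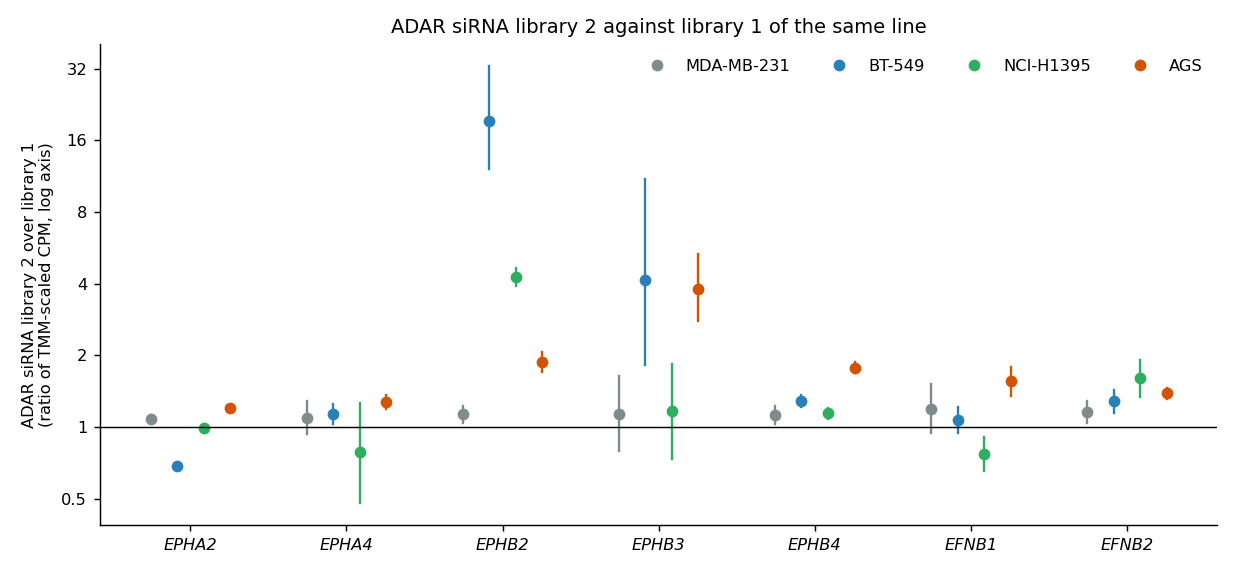
Ratio of ADAR siRNA library 2 to library 1 of the same line for 7 genes, on a log axis, with exact 95% counting intervals; colours are the 4 lines. EPHB2 reaches 19.3 in BT-549 and 4.26 in NCI-H1395, while the MDA-MB-231 points lie between 1.08 and 1.19.

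With NOP14 overexpression, the 8 members with at least 20 counts in the PCDH library were at 0.898- to 1.34-fold of its level. EPHA1 had 0 counts in both libraries, and EPHB1 had 2 with NOP14 and 3 with PCDH. EPHA2 had 612 CPM in the NOP14 library and 589 CPM in the PCDH library, a ratio of 1.04 (1.02 to 1.06). EPHB2 had 101 CPM with NOP14 and 100 CPM with PCDH, EPHB4 had 87.9 CPM with NOP14 and 93.0 CPM with PCDH, and EFNB2 had 56.0 CPM with NOP14 and 60.9 CPM with PCDH. The ratios were 1.004 for EPHB2 (0.949 to 1.06), 0.945 for EPHB4 (0.890 to 1.003) and 0.919 for EFNB2 (0.853 to 0.991). EPHB3, with 58 counts in the NOP14 library and 49 in the PCDH library, had the ratio farthest from 1 among members with at least 20 counts in the PCDH library, 1.34 (0.902 to 2.01). No member passed 2-fold, where 0.556% of 14201 genes did, and with 1 library per group there is no replicate check. The libraries shared neither control nor group with the siRNA set, and for comparison the control siRNA library differed from the PCDH library by 1.72-fold for EPHA4, 1.42-fold for EPHB2, 0.765-fold for EPHA2 and 0.748-fold for EFNB2.

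**Figure D4:**
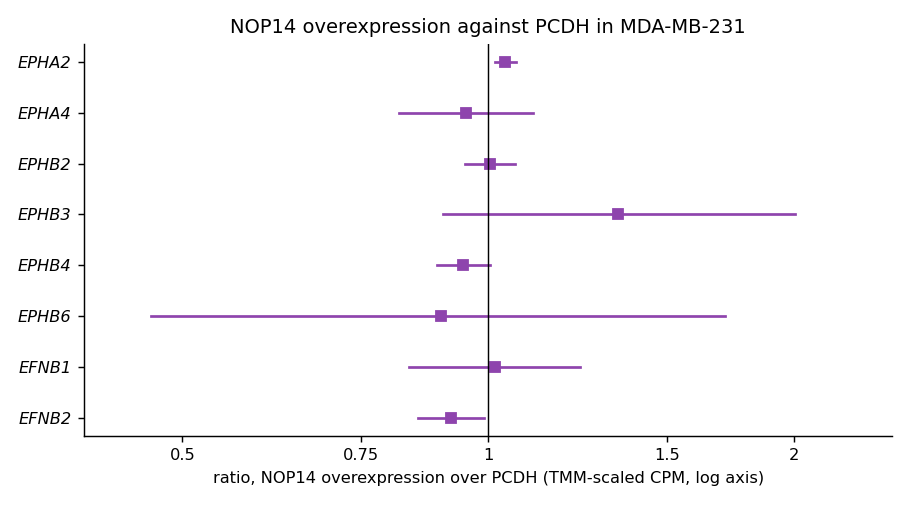
Ratio of the NOP14 overexpression library to the PCDH library in MDA-MB-231, on a log axis, with exact 95% counting intervals, for the 8 members with at least 20 counts in the PCDH library. The points lie between 0.898 and 1.34.

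The other 12 Eph receptor and ephrin genes were also measured. EPHA3 had 0 counts in 13 of 14 libraries, and EPHA6 was counted in MDA-MB-231 and had 0 counts in the 9 libraries of the other lines. EPHA7 was highest in NCI-H1395, with 3.86 and 12.3 CPM with ADAR siRNA, against 7.07 CPM in the control. EPHA5, EPHA8 and EPHA10 stayed at or under 5.98 CPM, EFNA2 at or under 4.35 CPM and EFNA3 at or under 10.7 CPM. None of the 10 genes of this list that passed the filter was called by edgeR or DESeq2 over the 4 lines, with 1 at an unadjusted edgeR p under 0.05.

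EFNA1, the ephrin-A1 ligand of EPHA2, was that gene. ADAR siRNA libraries 1 and 2 of MDA-MB-231 held 5.95 and 7.94 CPM of it, against 2.69 CPM in the control siRNA library, and the NOP14 and PCDH libraries of the line held 5.91 and 5.996 CPM. AGS had 73.2 and 98.7 CPM with ADAR siRNA, against 69.1 CPM in the control, BT-549 had 23.0 and 24.5 CPM, against 19.7 CPM, and NCI-H1395 had 4.73 and 5.28 CPM, against 5.39 CPM. In all, 6 of the 8 ADAR siRNA libraries were above their control. Fitted over the 4 lines, its log2 fold change came to 0.45 ± 0.20 (edgeR's quasi-likelihood test, adjusted p = 0.411), and in MDA-MB-231 it was 1.39 ± 0.38 (adjusted p = 0.311).

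EFNA5 in MDA-MB-231 had 47.0 and 40.6 CPM with ADAR siRNA, against 25.9 CPM in the control, and edgeR gave a log2 fold change of 0.78 ± 0.39 there (adjusted p = 1.0). Between libraries 2 and 1, EFNA5 was lower in library 2 in all 4 lines and EFNA4 was higher in all 4. How many of all genes keep 1 direction in every line was not counted. The ratios of EFNA5 were 0.865 in MDA-MB-231, 0.847 in BT-549, 0.530 in AGS and 0.796 in NCI-H1395. Those of EFNA4 were 1.71, 1.14, 2.21 and 1.78, in the same order. Neither passed: the log2 differences were -0.37 ± 0.20 for EFNA5 (edgeR, adjusted p = 0.645) and 0.73 ± 0.26 for EFNA4 (adjusted p = 0.350). EFNB3, the third ephrin-B ligand, had 5.38 and 14.4 CPM in ADAR siRNA libraries 1 and 2 of BT-549, against 5.59 CPM in the control. It was higher in library 2 than in library 1 in BT-549 (2.68-fold), NCI-H1395 (1.47-fold) and AGS (22 counts against 3), but lower in MDA-MB-231 (0.361-fold, 0.169 to 0.727). The log2 difference over the 4 lines was 0.73 ± 0.45 (edgeR, adjusted p = 0.726).

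The 18 kinases and adaptors had a median log2 fold change of 0.16 over the 4 lines, against 0.06 for all genes tested. None was called by edgeR, 3 had an unadjusted p under 0.05, and DESeq2 called GRB2 (-0.21 ± 0.07, adjusted p = 0.0439), an adaptor that links receptors to Ras, beside 3.08% of all genes. The 3 with the smallest edgeR p were RASA1, the Ras GTPase-activating protein that binds EPHB2 (0.36 ± 0.12, adjusted p = 0.276), the Src-family kinase FYN (0.55 ± 0.19, adjusted p = 0.289) and the focal adhesion kinase PTK2 (0.26 ± 0.12, adjusted p = 0.430). RASA1 had 103 and 214 CPM with ADAR siRNA in BT-549, against 100 CPM in the control, and 83.7 and 75.2 CPM in AGS, against 61.2 CPM. FYN had 57.5 and 43.2 CPM with ADAR siRNA in NCI-H1395, against 33.8 CPM, and 0 counts in all AGS libraries.

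The 8 partners of ephrin-B reverse signalling had a median log2 fold change of 0.19 over the 4 lines and no call by edgeR or DESeq2, with 0 at an unadjusted edgeR p under 0.05. The smallest p were those of PTPN13, a PDZ-domain phosphatase (0.33 ± 0.16, adjusted p = 0.443), the PDZ adaptor PICK1 (0.25 ± 0.16, adjusted p = 0.591) and the PDZ adaptor GRIP1 (0.61 ± 0.44, adjusted p = 0.646), all by edgeR. PTPN13 had 36.7 and 33.1 CPM with ADAR siRNA in AGS, against 18.9 CPM in the control.

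The 11 genes of receptor cleavage, dephosphorylation and turnover had no call over the 4 lines by edgeR or DESeq2 and a median log2 fold change of 0.10, with 1 at an unadjusted edgeR p under 0.05. MMP2, a secreted metalloproteinase, in MDA-MB-231 had 2.91 and 3.62 CPM with ADAR siRNA, against 0.672 CPM, but 58.8 and 16.5 CPM on either side of 37.4 CPM in BT-549 (0.83 ± 0.36 over the lines, edgeR, adjusted p = 0.422). With no filter on low counts edgeR called MMP2 over the 4 lines (0.91 ± 0.25, adjusted p = 0.0318) and in MDA-MB-231 (2.29 ± 0.58, adjusted p = 0.0372). ACP1, the low-molecular-weight tyrosine phosphatase that acts on Eph receptors, was at -0.23 ± 0.11 (adjusted p = 0.472).

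MMP14, the membrane metalloproteinase that cleaves EPHA2, had higher levels in library 2 than in library 1 in all 4 lines. In library 2 it had 442 CPM in MDA-MB-231, 82.4 in BT-549, 458 in AGS and 249 in NCI-H1395, and in library 1 it had 385, 26.96, 133 and 62.6 CPM, in the same order. Controls of these lines had 474, 46.9, 277 and 104 CPM, between the libraries in the last 3 lines and above both in MDA-MB-231. The log2 difference between libraries 2 and 1 was 1.41 ± 0.29, which edgeR did not call (adjusted p = 0.166) and DESeq2 did (1.39 ± 0.30, adjusted p = 0.00495). It was called by edgeR without MDA-MB-231 (1.80 ± 0.16, adjusted p = 0.00181), without BT-549 (1.31 ± 0.22, adjusted p = 9.65e-06) and without NCI-H1395 (1.17 ± 0.22, adjusted p = 0.00747), and not without AGS (1.28 ± 0.37, adjusted p = 0.614). PIK3R1, a PI3-kinase subunit named after its values were seen, had 275 and 76.5 CPM in libraries 2 and 1 of BT-549 and 171 and 63.4 CPM in those of AGS, with a log2 difference of 1.08 ± 0.29 over the 4 lines (edgeR, adjusted p = 0.267) and of 1.45 ± 0.18 without MDA-MB-231 (adjusted p = 0.00797).

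**Figure D5:**
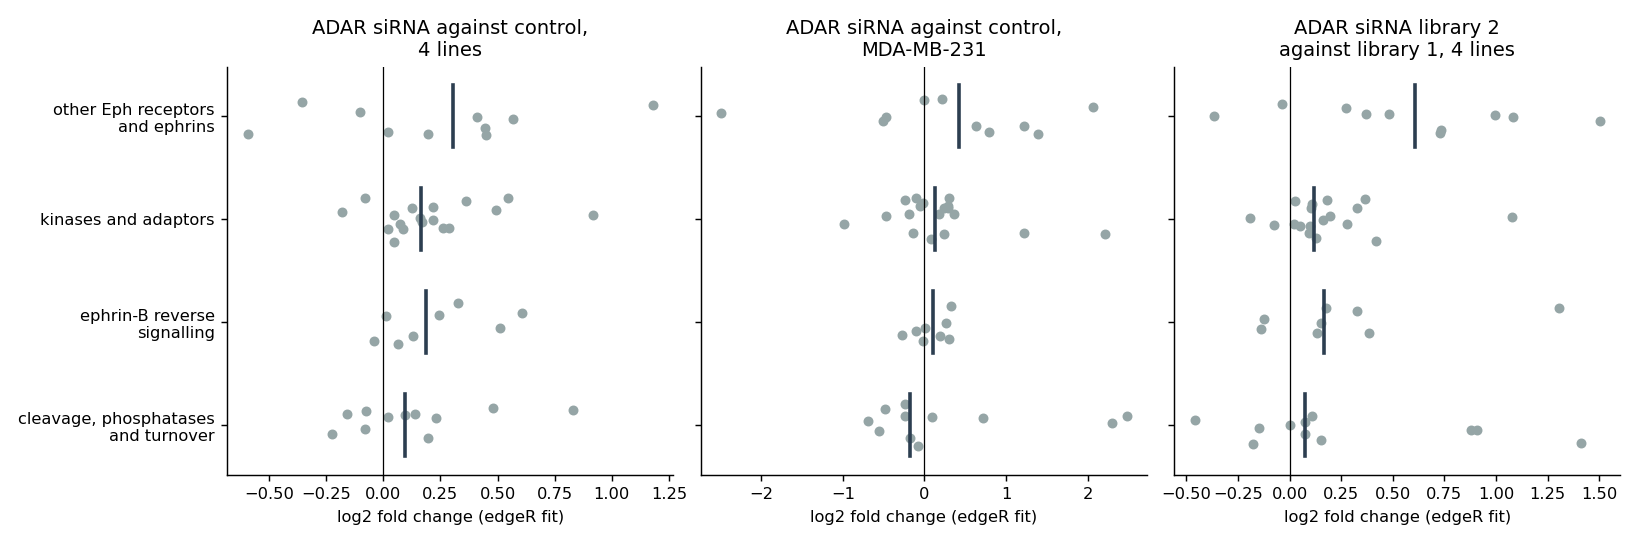
Log2 fold change from the edgeR fits for the genes of 4 pathway lists that passed the filter, in 3 comparisons with their own axes; points are genes, vertical bars are list medians, and no gene shown had an edgeR adjusted p under 0.05. Horizontal positions are values and the scatter within a list has no meaning.

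Likeness of pattern was measured as Pearson's r of log2 CPM over the 14 libraries, which share 4 cell lines, so that differences between lines carry most of it. The most alike gene was SULT1C4 for EPHA1 (r = 0.998), NUP58 for EPHA2 (0.975), MALL for EPHA4 (0.985), KRCC1 for EPHB2 (0.953), SCYL3 for EPHB3 (0.886), TMEM51 for EPHB4 (0.942), TRIM69 for EFNB1 (0.975) and NEDD9 for EFNB2 (0.987). EPHB1 and EPHB6 averaged under 1 CPM and were not matched.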

How the data were processed

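Poly(A) RNA was captured on beads and copied with random hexamers, per the labels' protocols. Per the submitters' processing notes the tools were featureCounts 2.0.6, STAR 2.7.11a and fastp 0.23.4, with the build hg38. No source used here gives the strand setting. The authors deposited whole-number counts per gene for 14 libraries, from 13338338 to 27828376 in total. Of 62702 lines, 3 broken lines of 1 gene were not used. Counting intervals at 95% and the floor of 3 counts cover counting error only.

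Levels (CPM) are counts divided by TMM-scaled library sizes, and log2 ratios used a prior count of 2. Tests were edgeR 4.0.16 quasi-likelihood fits (R 4.3.3, filterByExpr, TMM, robust) with Benjamini-Hochberg adjustment at 0.05 over all genes. Within a line, a fit of 8 groups to 12 siRNA libraries had 4 residual degrees of freedom, all from the ADAR siRNA pairs, so the lone control was assumed to vary like them. Over the 4 lines, the pair of a line was summed and line was a term. Library 2 was tested against library 1 with line as a term, which takes the number to mean the same in every line. Errors after ± are standard errors unless marked SD. Nothing says that libraries came from separate cultures, so p-values measure only the spread between these samples. The NOP14 comparison has 1 library per group and no test.

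The members, the lists and the tests were chosen with earlier results of these data known. The members, the other family members, the genes called in each further list or else the 3 with the smallest p over the 4 lines, ADAR, NOP14 and each member's most alike gene (at a mean of 5 CPM, for members at 1 CPM) are named. A further list of downstream genes is not reported here. Alternatives were DESeq2 1.42.0, median-ratio scaling, library totals, other filters and prior counts, a replicate block, unsummed libraries, and leaving out libraries or lines. The fits were tested on simulated counts: within 1 line, among 21195 genes, edgeR found 5 of the 100 genes changed 2-fold, 70 of the 100 changed 4-fold, and 6 false calls. Over the 4 lines (20381 genes) it found 71, 95 and 10 in the same order. For library 2 against 1 (19071 genes) it found 69, 97 and 12. Recovery in the real libraries was not tested. There edgeR did not call ADAR, the targeted gene, over the 4 lines with the pairs summed, so these counts may overstate it.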

Additional observations from a re-analysis of the deposited data

Results flagged for a closer look

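With TMM scaling, EPHA4, EPHB2 and EFNB1 lay on opposite sides of the control in different lines. Both ADAR siRNA libraries of each such line lay on the same side, with at least 20 counts in every library compared. The values are mean log2 ratios of 2 ADAR siRNA libraries to 1 control, and the differences between lines were not tested. EPHA4 was higher in BT-549 (0.56) and lower in MDA-MB-231 (-0.30) and in AGS (-0.44). EPHB2 was higher in AGS (0.67) and lower in MDA-MB-231 (-0.80). EFNB1 was higher in BT-549 (0.38) and lower in NCI-H1395 (-0.20), where library 1 alone was at 99.2% of the control. The counting interval of that library 1 ratio includes 1 (0.858 to 1.15). With library totals the same library was above the control, at 20.2 CPM against 19.4 CPM. The share of all genes on opposite sides in different lines was not counted.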

How the results depend on the processing

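Of 27 mean log2 ratios of members with 20 counts in a line's 3 libraries, library totals turned 4 in direction (EPHA4 in NCI-H1395, EPHB4 in AGS, EFNB1 in MDA-MB-231 and AGS), median-ratio scaling 1 (EFNB1 in MDA-MB-231), a prior count of 0.5 turned 0, leaving out library 1 turned 4 and leaving out library 2 turned 9; all of these had libraries on either side of the control. Counts of called genes depended on the method, and the cause was not tested. DESeq2 called 45 genes in MDA-MB-231, 3 in BT-549, 47 in NCI-H1395, 14 in AGS, 676 over the 4 lines and 64 between libraries 2 and 1, against 18, 1, 1, 1, 4 and 6 by edgeR. With no filter edgeR called 107, 27, 72, 33, 394 and 274. With at least 10 counts in every library it called 2 in MDA-MB-231, 2 over the 4 lines and 1 between libraries 2 and 1, and with median-ratio scaling 2 in AGS. The 12 libraries unsummed gave 1 over the 4 lines. Leaving out a replicate number gave 2 to 4 in MDA-MB-231, 1 to 32 in BT-549, 38 to 39 in NCI-H1395, 1 to 8 in AGS and 0 to 14 over the 4 lines. Without MDA-MB-231, 75 genes were called over the lines and 120 between libraries 2 and 1; without BT-549, 0 and 75; without NCI-H1395, 0 and 21; and without AGS, 5 and 0. At an unadjusted p under 0.05, edgeR passed 2033 without BT-549 and 1608 without NCI-H1395 over the lines, 1374 without AGS between libraries, and 2765 over the lines without library 1. For NOP14, a CPM of at least 5 left 1 gene past 2-fold in place of 79. With the replicate block the counts were 187 in MDA-MB-231, 42 in BT-549, 65 in AGS and 149 in NCI-H1395. Among pathway genes the block added MMP2 (2.30 ± 0.56) and ABL1 (-0.98 ± 0.27) in MDA-MB-231, and no filter added MMP2 and, between libraries 2 and 1, MMP14 and PIK3R1. Fits against the control did not pair libraries by number, except with the replicate block. The block and the fit of library 2 against 1 took the number to mean the same in every line. Library 2 minus library 1 correlated across 11647 genes at -0.08 to 0.07 between MDA-MB-231 and the other lines. Among the other 3 lines it correlated at 0.19 to 0.44. Lone controls, counts under 20 and the unstated origin of the libraries limit every comparison.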
